A study of Mus musculus with 30 samples.

Results

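The 6 genes described here carry the ligand, receptor and decoy signals that set osteoclast formation: *Tnfsf11* (RANKL), *Tnfrsf11b* (osteoprotegerin, OPG), *Tnfrsf11a* (RANK), *Csf1*, *Il34* and *Csf1r*. They were chosen by name for their place in the RANKL, OPG and CSF1 axis, and all 6 were found among the 55416 genes of the count table. Bulk RNA-seq was made from fracture callus of 30 mice, taken at 3, 6, 10 or 14 days after a closed, non-stabilized fracture of the left tibia (dpf) in young adult animals. By the study's text the 3-dpf tissue was cut from the tibia around the break, while at 6-dpf the callus was taken whole, so time and the tissue taken cannot be told apart in the changes from 3- to 6-dpf given for each gene. The mice labelled Apex1 KO carried Prrx1-Cre and 2 floxed *Apex1* alleles, so the gene was deleted in cells that descend from limb mesenchyme, while blood-derived cells of the callus, osteoclasts included, kept it. The WT groups were littermates that, by the breeding described in the study, carried floxed alleles without Cre or Prrx1-Cre with 1 floxed allele, and the labels do not tell these apart. There were 4 WT and 4 Apex1 KO mice at 3-dpf, 5 and 3 at 6-dpf, 4 and 3 at 10-dpf, and 4 and 3 at 14-dpf. At 14-dpf the 3 Apex1 KO mice were female and 3 of the 4 WT mice were male.

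RANKL, a cytokine made by osteoblast-lineage cells, osteocytes, hypertrophic chondrocytes and T cells, binds RANK on precursors of the monocyte-macrophage lineage and drives them to fuse into osteoclasts. OPG is a secreted decoy receptor that binds RANKL and keeps it from RANK. CSF1 and IL-34 are the ligands of the CSF1 receptor, which keeps macrophages and osteoclast precursors alive and lets them express RANK. In a healing fracture, cells of this lineage resorb the cartilage and early bone of the callus.

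Promoter sequence is shown for 3 of the 6 members, matched by symbol in the RefSeq promoter table (GRCm38.p6), whose levels in every Apex1 KO mouse at 10-dpf lay below every WT mouse. Each line gives the 250 bases before the start of the gene, 5′ to 3′ on the strand of the gene. *Tnfsf11* lies at chr14:78308044-78308293 on the minus strand, *Tnfrsf11a* at chr1:105780473-105780722 on the plus strand and *Csf1* at chr3:107760470-107760719 on the minus strand. Capitals mark matches, on either strand, to AP-1 (TGANTCA), the TATA box (TATAAA), the cores ACGTG and GCGTG of the hypoxia response element, and NF-κB.

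Tnfsf11: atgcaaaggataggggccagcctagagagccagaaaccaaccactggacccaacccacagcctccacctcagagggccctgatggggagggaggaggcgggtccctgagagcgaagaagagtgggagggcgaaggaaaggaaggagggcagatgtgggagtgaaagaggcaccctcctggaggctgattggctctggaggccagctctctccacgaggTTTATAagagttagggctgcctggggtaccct

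Tnfrsf11a: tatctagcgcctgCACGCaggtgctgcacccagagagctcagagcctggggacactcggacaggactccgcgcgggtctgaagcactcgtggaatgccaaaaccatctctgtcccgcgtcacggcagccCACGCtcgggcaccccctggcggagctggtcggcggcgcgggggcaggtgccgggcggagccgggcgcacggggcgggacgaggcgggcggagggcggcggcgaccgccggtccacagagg

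Csf1: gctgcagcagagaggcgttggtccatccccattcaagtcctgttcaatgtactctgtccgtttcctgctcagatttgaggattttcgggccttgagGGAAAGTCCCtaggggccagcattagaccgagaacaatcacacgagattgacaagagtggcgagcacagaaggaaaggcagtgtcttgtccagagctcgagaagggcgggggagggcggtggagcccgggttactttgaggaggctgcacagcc

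The *Tnfsf11* window held 1 TATA box, read on the other strand, whose first base lay 32 bases before the start. TATAAA is found in 12.3% of the 32536 distinct promoter windows of this length in the table. The *Csf1* window held 1 NF-κB match, 154 to 145 bases before the start, a motif present in 7.28% of windows. The *Tnfrsf11a* window held 2 copies of GCGTG, which 28.3% of windows hold, and its GC content of 73.6% was above the 60.4% of *Tnfsf11*, the 56.4% of *Csf1* and the median of 52.4% over all windows. None of the 3 windows held TGANTCA (6.73% of windows) or ACGTG (16.7%). These matches describe letters in a window and are not binding sites.

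Counts on genes ran from 18334389 to 43111491 per library. Levels are given as CPM, counts scaled to a library of fixed size after TMM, and differences as log2 of Apex1 KO over WT with the standard error (SE) from a quasi-likelihood fit in edgeR that also holds sex. In the fit of 14-dpf alone, genotype is then read from the Apex1 KO mice, all female, against the 1 WT female. The WT males there set the sex term and add to the estimate of spread. This holds for members, lists and markers alike. A gene passed the test where its Benjamini-Hochberg adjusted p over all genes was under 0.05, and all 6 members passed the filter on low counts in each comparison. *Apex1* itself was at 26.3 to 33.2 CPM in WT and 18.5 to 34.3 CPM in the libraries labelled Apex1 KO at 3-dpf, which overlap (log2 difference −0.15, adjusted p = 0.927). It was lower by 0.67 at 6-dpf (adjusted p = 0.0071) and by 0.65 at 10-dpf (adjusted p = 0.0278). At 14-dpf the *Apex1* difference was −0.29 with sex in the model (adjusted p = 0.367) and −0.55 without it (adjusted p = 0.0187). A count over bulk tissue does not separate the cells that keep the gene from those that lost it, and for all 6 members fewer cells of a type and less RNA per cell cannot be told apart. At 3-dpf, Apex1 KO replicate 1 stood apart with a summed neutrophil marker level of 949 CPM against 4503 to 7391 CPM in the other Apex1 KO mice. At 10-dpf, WT replicate 3 had the highest cartilage marker sum of the WT mice (49933 CPM) and the lowest osteoclast marker sum (3555 CPM).

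Across the 8 groups, the members differed widely in level when counts were scaled by exon length and depth so that genes of different length can be compared. By mean on this per-length scale *Csf1r* was the most abundant member in each of the 8 groups. Its means ran from 88.4 ± 14.3 (SD, n = 5) in WT at 6-dpf to 360.2 ± 37.9 (SD, n = 4) in WT at 14-dpf. In WT at 10-dpf its range overlapped that of *Csf1*. *Il34* had the lowest mean in each group, between 5.15 and 6.97, and overlapped *Tnfrsf11b* in Apex1 KO at 3-dpf. *Csf1* came second by mean in 7 of the 8 groups, and overlapped *Tnfrsf11b* in WT at 6-dpf. In Apex1 KO at 10-dpf *Tnfrsf11b* stood above *Csf1* with overlapping ranges. *Tnfsf11* and *Tnfrsf11a* were neighbours with overlapping ranges in WT at 3-, 10- and 14-dpf and in Apex1 KO at 3- and 6-dpf.

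**Figure D1:**
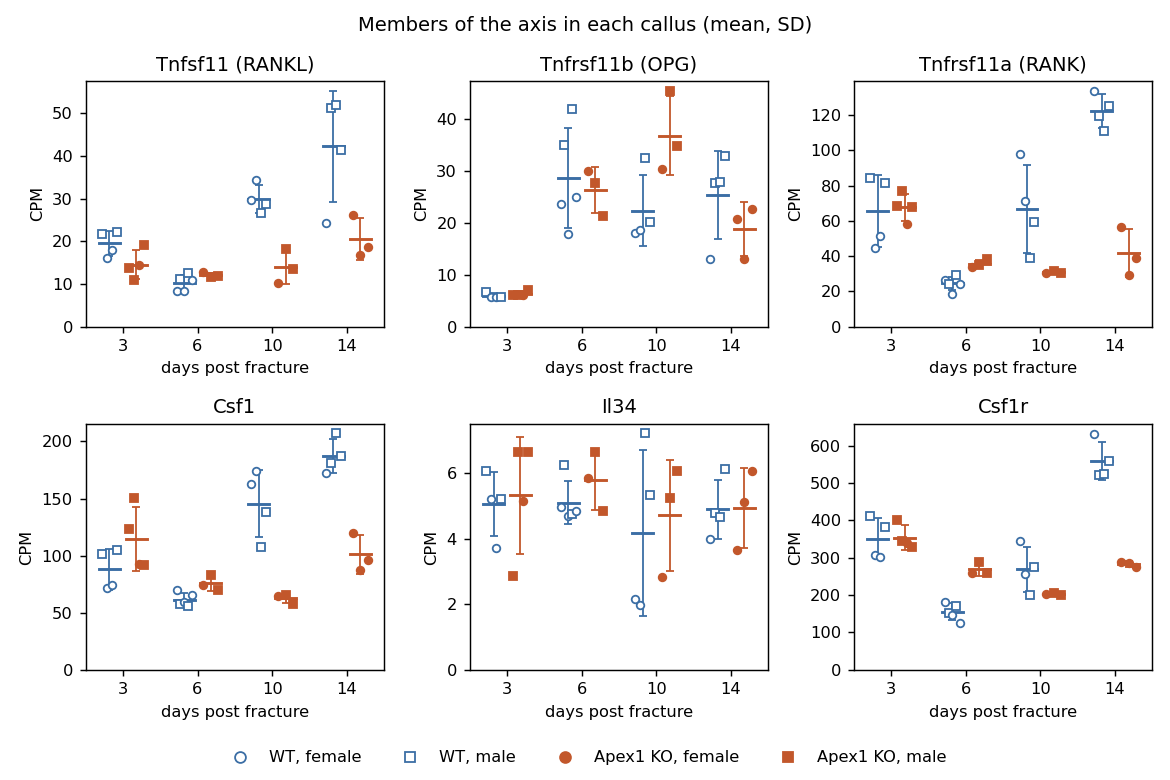
CPM of the 6 members in each callus against days post fracture, with open symbols for WT and filled symbols for Apex1 KO, circles for females and squares for males, and the mean with its SD as a line and whisker. At 10-dpf the Apex1 KO mice lie below every WT mouse for *Tnfsf11*, *Tnfrsf11a* and *Csf1*, and at 14-dpf for *Tnfrsf11a*, *Csf1* and *Csf1r*.

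*Tnfsf11*, which encodes the ligand RANKL (chr14:78514885-78545490, minus strand, GRCm39), was lower in Apex1 KO than in WT callus at 10-dpf. It did not pass the test at the other times in the fits of each time alone with sex in the model. At 10-dpf the WT mice were at 29.7, 34.3, 26.7 and 28.6 CPM and the Apex1 KO mice at 10.3, 18.1 and 13.6 CPM. The groups did not overlap, and the level was 2.12-fold lower in Apex1 KO (log2 difference −1.08, SE 0.18, adjusted p = 0.0205). At 10-dpf, 2 of the 6 members were lower and passed the test, against 3.44% of the 18910 genes tested, and 3 of the 6 were lower without overlap between genotypes, against 11.7% of genes. Without WT replicate 1, WT replicate 2, Apex1 KO replicate 1 or Apex1 KO replicate 3 the adjusted p of *Tnfsf11* at 10-dpf was 0.0703, 0.0531, 0.0957 and 0.0573, with log2 differences from −1.08 to −0.80.

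At 14-dpf the *Tnfsf11* levels were 24.2, 51.3, 52.0 and 41.4 CPM in WT and 26.0, 16.8 and 18.6 CPM in Apex1 KO. The lowest WT value belonged to replicate 1, the only WT female at this time, and lay among the Apex1 KO mice, all of them female. With sex in the model the difference was −0.20 (SE 0.24, adjusted p = 0.624). Without the sex term it was −0.98 (SE 0.27, adjusted p = 0.0267), and it was −1.16 (adjusted p = 0.00309) when WT replicate 1 was also left out. In 1 model over all 30 libraries, with sex kept, it was −0.80 (SE 0.23, adjusted p = 0.00902), and with library size alone it was 0.07 (adjusted p = 0.867). Within the 14-dpf libraries, sex and genotype are largely confounded, and the size and sign of the difference rested on the model.

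In WT *Tnfsf11* was less abundant at the early times than at 10- and 14-dpf. In Apex1 KO its mean at 3-dpf (14.5 CPM) was near that at 10-dpf (14.0 CPM). At 3-dpf the WT mice were at 21.7, 16.1, 18.0 and 22.1 CPM and the Apex1 KO mice at 13.6, 10.8, 14.4 and 19.1 CPM, with 1 Apex1 KO mouse inside the WT range. The difference of −0.46 (SE 0.17) had an unadjusted p of 0.0279 and an adjusted p of 0.768. The Apex1 KO mouse was the lower one in each pair of the same replicate number. With that number as a block in edgeR the difference was −0.44 (SE 0.11, unadjusted p = 0.00532, adjusted p = 0.43). None of the 6 members passed the test at 3-dpf, where 0.0% of the 19866 genes tested did, and 1 member had an unadjusted p under 0.05. DESeq2's Wald test also called 0 members at 3-dpf, and edgeR called 0 with any 1 mouse left out, Apex1 KO replicate 1 included. At 6-dpf *Tnfsf11* lay at 8.36 to 12.6 CPM in WT and 11.7 to 12.7 CPM in Apex1 KO (log2 difference 0.20, adjusted p = 0.431). By mean level, WT at 14-dpf came first and WT at 10-dpf second. WT at 10-dpf did not overlap with the next group, Apex1 KO at 14-dpf, and each other pair of neighbours in the order overlapped.

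*Tnfrsf11b*, the gene of the decoy receptor OPG (chr15:54114015-54142075, minus strand), was low at 3-dpf and several-fold higher at all later times in both genotypes. In WT it rose from 5.96 ± 0.42 CPM (SD, n = 4) at 3-dpf to 28.6 ± 9.64 CPM (SD, n = 5) at 6-dpf (log2 change 2.25, SE 0.19, adjusted p = 7.32e-07). In Apex1 KO it rose from 6.35 ± 0.52 CPM (SD, n = 4) to 26.3 ± 4.50 CPM (SD, n = 3), a log2 change of 2.08 (SE 0.20, adjusted p = 2.21e-05). The 2 groups at 3-dpf overlapped each other and lay below the other 6 groups, whose neighbours overlapped throughout.

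At 10-dpf *Tnfrsf11b* was at 18.1, 18.5, 32.4 and 20.2 CPM in WT and 30.4, 45.3 and 34.7 CPM in Apex1 KO. It differed in the direction opposite to its ligand, with WT replicate 3 inside the Apex1 KO range. The log2 difference of 0.68 (SE 0.17) had an adjusted p of 0.0528. It passed with DESeq2 (adjusted p = 0.00466), library size alone (0.022), a filter of 10 counts in each library (0.0464), no filter (0.0258) and scaling without the 20 most abundant genes (0.0486). Without WT replicate 3 it was 0.89 (adjusted p = 0.00749) without WT replicate 4 it was 0.55 (adjusted p = 0.0448), and without Apex1 KO replicate 1 it was 0.61 (adjusted p = 0.325). At 14-dpf the difference was 0.56 (adjusted p = 0.266) with sex in the model, 0.76 (adjusted p = 0.0142) when Apex1 KO replicate 2 was left out, and −0.37 (adjusted p = 0.393) without the sex term. It was −0.05 (adjusted p = 0.899) in 1 model over all 30 libraries with sex kept, so its sign at 14-dpf rested on the model. WT replicate 1, the only WT female, had the lowest WT level at 14-dpf, 13.1 CPM against 27.7 to 32.9 CPM in the males.

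The ratio of *Tnfsf11* to *Tnfrsf11b* counts within a library does not depend on the scaling between libraries. At 10-dpf it was 0.822 to 1.86 in WT and 0.340 to 0.401 in Apex1 KO, so the 2 genotypes did not overlap. At 3-dpf, when OPG was low, the ratio was 2.80 to 3.83 in WT and 1.76 to 2.68 in Apex1 KO, also without overlap. At 6-dpf it was 0.302 to 0.468 in WT and 0.422 to 0.563 in Apex1 KO. At 14-dpf it was 1.85, 1.85, 1.88 and 1.26 in WT and 1.26, 1.30 and 0.820 in Apex1 KO, where 1 WT mouse lay among the Apex1 KO mice. WT replicate 1 at 14-dpf, low in both genes, had a ratio like those of WT replicates 2 and 3. These ratios combine 2 members and are given as a description without a test.

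**Figure D2:**
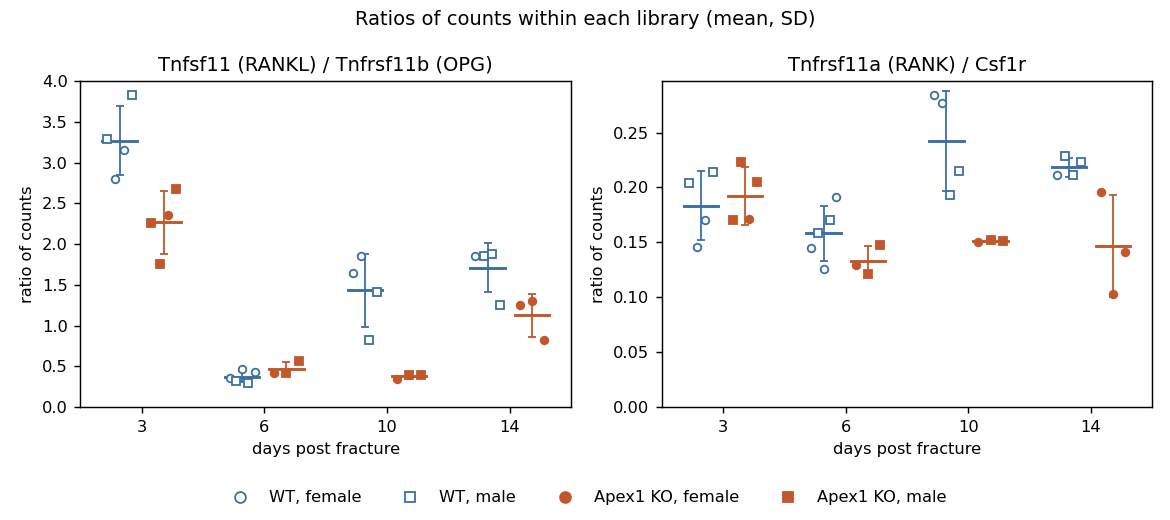
Ratio of *Tnfsf11* to *Tnfrsf11b* counts (left) and of *Tnfrsf11a* to *Csf1r* counts (right) in each library against days post fracture, symbols as in the plot of member levels, with mean and SD. The Apex1 KO mice at 10-dpf sit below every WT mouse in both panels, at 0.340 to 0.401 on the left and at 0.150 to 0.152 on the right.

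*Csf1* (chr3:107648364-107667806, minus strand), which encodes the main growth factor of macrophages and osteoclast precursors, was lower in Apex1 KO callus at 10- and 14-dpf and slightly higher at 6-dpf. At 10-dpf the WT mice were at 163, 174, 108 and 138 CPM and the Apex1 KO mice at 64.9, 65.4 and 57.5 CPM. The groups were well apart, a 2.17-fold lower level (log2 difference −1.11, SE 0.12, adjusted p = 0.00646) that passed the test with any 1 mouse left out. At 14-dpf the levels were 173, 181, 207 and 187 CPM in WT and 120.1, 87.1 and 96.0 CPM in Apex1 KO. These did not overlap either (log2 difference −0.74, SE 0.16, adjusted p = 0.0268, and −0.83, adjusted p = 0.000845, without the sex term). Leaving out WT replicate 2, 3 or 4 or Apex1 KO replicate 3 at 14-dpf gave adjusted p values of 0.0649, 0.06, 0.0686 and 0.0509, and library size alone in place of TMM gave −0.47 (adjusted p = 0.122).

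At 6-dpf *Csf1* was at 69.5, 57.4, 59.6, 55.8 and 65.2 CPM in WT and 74.4, 83.0 and 70.3 CPM in Apex1 KO, so the lowest Apex1 KO mouse was just above the highest WT mouse. The log2 difference of 0.34 (SE 0.10, adjusted p = 0.0495) stood at the threshold. It missed it without WT replicate 2, 3, 4 or 5 or any of the 3 Apex1 KO mice (adjusted p from 0.057 to 0.153), and with all mice it missed it in 1 model over all 30 libraries (0.28, adjusted p = 0.293), with the replicate block (0.29, adjusted p = 0.236) and with DESeq2 size factors (0.33, adjusted p = 0.0551). At 3-dpf the levels overlapped, at 71.4 to 105.1 CPM in WT and 92.0 to 151 CPM in Apex1 KO (log2 difference 0.28, adjusted p = 0.837). In WT, *Csf1* fell by 0.50 on the log2 scale from 3- to 6-dpf (adjusted p = 0.0154), and in Apex1 KO by 0.58 (adjusted p = 0.0279). The fall in WT missed the threshold without WT replicate 4 at 3-dpf or WT replicate 2 or 4 at 6-dpf (adjusted p from 0.0511 to 0.0759). That in Apex1 KO missed it without Apex1 KO replicate 2 at 3-dpf or any Apex1 KO mouse at 6-dpf (adjusted p from 0.0621 to 0.0975). With the replicate block the fall in Apex1 KO missed it (−0.60, adjusted p = 0.0571) and that in WT passed (−0.55, adjusted p = 0.0252). By mean level the highest groups were WT at 14- and 10-dpf, which overlapped, and the lowest were Apex1 KO at 10-dpf and WT at 6-dpf, which overlapped too.

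*Il34* (chr8:111423928-111532584, minus strand), the second ligand of the receptor, was the member with the smallest range across groups. Its group means lay between 4.17 and 5.78 CPM and all neighbouring groups overlapped. No genotype difference in *Il34* passed the test, with log2 values of 0.04 (SE 0.28) at 3-dpf, 0.16 (SE 0.17) at 6-dpf, 0.09 (SE 0.20) at 10-dpf and 0.34 (SE 0.34) at 14-dpf. On the per-length scale *Csf1* made up 85.7% to 98.3% of the 2 ligands together in the single libraries. The mean share of *Csf1* was 95.3% ± 3.59 (SD, n = 4) in WT and 89.6% ± 3.90 (SD, n = 3) in Apex1 KO at 10-dpf, with overlapping mice.

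*Tnfrsf11a*, the gene of the receptor RANK (chr1:105708358-105777170, plus strand), was higher in Apex1 KO callus at 6-dpf and lower at 14-dpf. The annotated lncRNA *Gm70609* overlaps it on the same strand, where shared reads cannot be assigned. At 6-dpf the WT mice were at 26.4, 24.2, 18.6, 29.2 and 23.9 CPM and the Apex1 KO mice at 33.5, 35.0 and 38.3 CPM. The groups did not overlap (log2 difference 0.50, SE 0.13, adjusted p = 0.0346), and 3 of the 6 members passed the test as higher at 6-dpf, against 5.31% of the 20260 genes tested. The same 3 members did not overlap between genotypes, against 9.44% of genes. Leaving out WT replicate 2, 4 or 5 or Apex1 KO replicate 1 or 3 at 6-dpf ended the call of *Tnfrsf11a*, with adjusted p values of 0.108, 0.0552, 0.0532, 0.198 and 0.0749. So did 1 model over all 30 libraries (0.50, adjusted p = 0.159) and the replicate number as a block (0.64, adjusted p = 0.0761).

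At 14-dpf *Tnfrsf11a* was at 134, 119, 111 and 125 CPM in WT and 56.7, 29.5 and 39.0 CPM in Apex1 KO. All Apex1 KO mice were far below the WT mice. With sex in the model, where the 1 WT female is the reference, the level was 3.13-fold lower (log2 difference −1.64, SE 0.27, adjusted p = 0.0112). The call stood without the sex term (−1.49, adjusted p = 0.000969) and with any 1 mouse left out. At 14-dpf, 3 of the 6 members passed the test as lower, against 7.04% of the 20228 genes tested. Without the sex term 4 did, against 18.4% of the 18410 genes tested. In 3 of the 6 the Apex1 KO mice lay below every WT mouse, against 24.7% of genes. At 10-dpf *Tnfrsf11a* was at 98.2, 71.0, 38.8 and 59.3 CPM in WT and 30.4, 31.4 and 30.3 CPM in Apex1 KO. The WT mice were spread widely, the Apex1 KO mice were close together and below them, and the difference of −0.95 (SE 0.23) had an adjusted p of 0.0574. It passed with DESeq2 (adjusted p = 0.000204) and in 1 model over all 30 libraries (−1.12, adjusted p = 0.00738). It was −1.17 (adjusted p = 0.00749) without WT replicate 3 and −0.67 (adjusted p = 0.303) without Apex1 KO replicate 1.

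Over time *Tnfrsf11a* fell from 3- to 6-dpf by 1.37 on the log2 scale in WT (SE 0.13, adjusted p = 1.73e-06) and by 0.89 in Apex1 KO (SE 0.15, adjusted p = 0.00113). From 10- to 14-dpf it rose by 1.01 in WT (SE 0.22, adjusted p = 0.0138), and in Apex1 KO the change was 0.18 (SE 0.29, adjusted p = 0.822). By mean level WT at 14-dpf stood above all other groups without overlap, and Apex1 KO at 10-dpf and WT at 6-dpf were the lowest.

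*Csf1r* (chr18:61229714-61266535, plus strand), the receptor of CSF1 and IL-34, was higher in Apex1 KO callus at 6-dpf and lower at 14-dpf. At 6-dpf it was at 182, 153, 148, 172 and 125 CPM in WT and 259, 290.0 and 258 CPM in Apex1 KO. The groups were clearly apart, with a 1.70-fold higher level in Apex1 KO (log2 difference 0.77, SE 0.13, adjusted p = 0.00629, and 0.0518 without Apex1 KO replicate 1). At 14-dpf it was at 632, 523, 525 and 560.1 CPM in WT and 290.0, 286 and 276 CPM in Apex1 KO. The groups were again apart. With sex in the model, where the 1 WT female is the reference, the level was 2.18-fold lower in Apex1 KO (log2 difference −1.12, SE 0.11, adjusted p = 0.00113). The call stood without the sex term (−0.92) and with any 1 mouse left out. At 10-dpf the Apex1 KO mice were at 201 to 207 CPM and the WT mice at 201 to 346 CPM (log2 difference −0.33, adjusted p = 0.22), and at 3-dpf the difference was −0.03 (adjusted p = 0.973).

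From 3- to 6-dpf *Csf1r* fell by 1.16 in WT (SE 0.10, adjusted p = 1.17e-06) and by 0.39 in Apex1 KO (SE 0.12, adjusted p = 0.0393). The fall in Apex1 KO missed the threshold without WT replicate 4 or Apex1 KO replicate 1, 2 or 3 at 3-dpf, or without WT replicate 3 or any Apex1 KO mouse at 6-dpf (adjusted p from 0.0507 to 0.1155). With all mice it missed it with the replicate number as a block (−0.38, adjusted p = 0.0508) and without the sex term (−0.40, adjusted p = 0.0502). From 10- to 14-dpf *Csf1r* rose by 1.12 in WT (SE 0.11, adjusted p = 0.000192), and the change in Apex1 KO was 0.34 (SE 0.15, adjusted p = 0.309). By mean level WT at 14-dpf again stood alone at the top and WT at 6-dpf alone at the bottom, with Apex1 KO at 10-dpf just above it. The ratio of *Tnfrsf11a* to *Csf1r* counts was 0.193 to 0.284 in WT and 0.150 to 0.152 in Apex1 KO at 10-dpf. At 14-dpf it was 0.211 to 0.228 in WT and 0.103 to 0.195 in Apex1 KO. At both times no Apex1 KO mouse reached the WT range, which is given as a description.

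**Figure D3:**
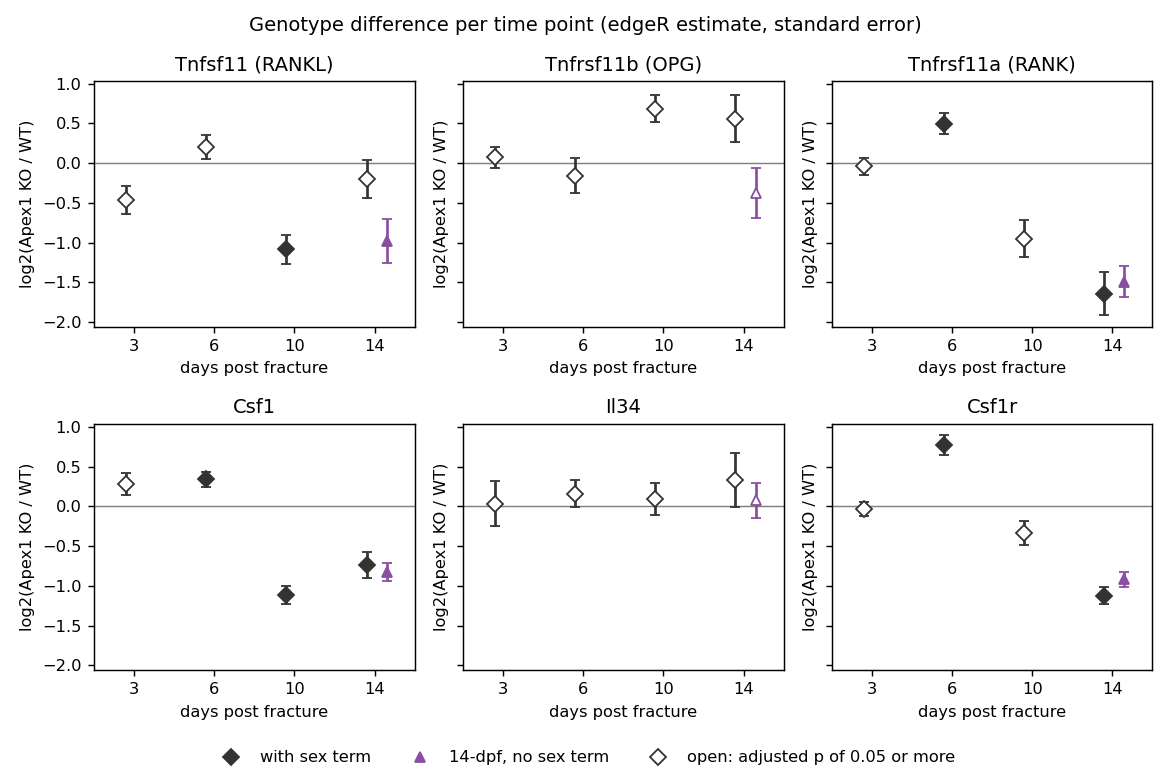
Log2 difference of Apex1 KO over WT with its SE for each member at 3-, 6-, 10- and 14-dpf, from the model with sex (diamonds) and at 14-dpf also without sex (triangles), filled where the adjusted p was under 0.05. *Csf1*, *Csf1r* and *Tnfrsf11a* lie above 0 at 6-dpf and below 0 at 10- and 14-dpf, and for *Tnfsf11* and *Tnfrsf11b* the 2 models at 14-dpf are apart.

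Whether a genotype difference changed with time was tested in its own right. From 3- to 6-dpf it changed for *Csf1r*, by 0.78 (SE 0.15, adjusted p = 0.022), 1 of the 6 members, against 0.318% of the 20468 genes tested that changed upwards. This call was lost without WT replicate 4 at 3-dpf (adjusted p = 0.0537) or Apex1 KO replicate 1 at 6-dpf (adjusted p = 0.067), and with the replicate number as a block (0.73, adjusted p = 0.0513). From 6- to 10-dpf the log2 difference shifted downwards for *Tnfrsf11a* (−1.66, SE 0.32, adjusted p = 0.0152), *Csf1* (−1.54, SE 0.16, adjusted p = 0.00165), *Tnfsf11* (−1.35, SE 0.24, adjusted p = 0.00844) and *Csf1r* (−1.20, SE 0.21, adjusted p = 0.00884). These are 4 of the 6 members, against 1.1% of the 19946 genes tested. *Tnfrsf11b* moved the other way by 0.82 (SE 0.31) with an adjusted p of 0.212, and 0.0288 without Apex1 KO replicate 1 at 6-dpf.

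From 6- to 14-dpf it shifted downwards for *Tnfrsf11a* (−2.01), *Csf1r* (−1.77) and *Csf1* (−1.23, with adjusted p from 0.000111 to 0.000962), 3 of the 6 members against 4.76% of the 20682 genes tested. For *Tnfsf11* the change of −0.85 had an adjusted p of 0.126, and without WT replicate 1 at 14-dpf it was −1.23 (adjusted p = 0.0328). It was −0.96 (adjusted p = 0.0457) in 1 model over all 30 libraries and −1.27 (adjusted p = 0.0166) without the sex term. From 10- to 14-dpf edgeR called 0 members, where 0.436% of genes passed. DESeq2 called 1, and 1 had an unadjusted p under 0.05, in both cases *Csf1r* (log2 change −0.78, edgeR adjusted p = 0.118). The names of the libraries change in style between 6- and 10-dpf, so a batch and the step from 6- to 10-dpf cannot be told apart in the levels. A shift common to all libraries of a time cancels in the tests of changed differences.

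In the tests of time alone, 4 of the 6 members fell and 1 rose from 3- to 6-dpf in WT, against 15.1% and 15.4% of genes. In Apex1 KO 3 fell and 1 rose, against 6.91% and 7.1% of genes. The member that fell in WT and did not pass in Apex1 KO was *Tnfsf11*, at −0.92 (SE 0.15, adjusted p = 0.000271) and −0.24 (SE 0.17, adjusted p = 0.396), and the difference between these had an adjusted p of 0.19. From 10- to 14-dpf 2 members rose in WT, *Tnfrsf11a* and *Csf1r*, against 6.19% of genes. *Csf1* in WT, at 0.42 (SE 0.14, adjusted p = 0.0621), passed with DESeq2 (0.43, adjusted p = 0.0195), which called 3 members, and in edgeR with DESeq2 size factors (adjusted p = 0.0471). It also passed without WT replicate 1 at 14-dpf (0.58, adjusted p = 0.0271) or without Apex1 KO replicate 1 or 2 at 14-dpf (adjusted p = 0.0403 and 0.041). In Apex1 KO edgeR with sex in the model called 0 members, where 0.259% of genes passed, while 4 had an unadjusted p under 0.05. DESeq2 called 1, *Csf1*. In edgeR this gene also passed without the sex term (0.72, adjusted p = 0.0256) and with the replicate number as a block (0.70, adjusted p = 0.0436). It passed too in 1 model over all 30 libraries (0.72, adjusted p = 0.0435).

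The genes that osteoclasts switch on and use, a list of 20 that holds effectors of fusion, acid secretion and matrix breakdown, were lower at the late times. Over all genes tested, 5.61% passed as lower and 5.31% as higher at 6-dpf, 3.44% and 3.01% at 10-dpf, and 7.04% and 4.28% at 14-dpf. At 10-dpf 13 of the 20 fell in Apex1 KO and none rose, with a median log2 difference of −1.0 beside −0.00 over all genes tested. The lowest were *Ocstamp* (−2.35, SE 0.30) and *Dcstamp* (−2.08, SE 0.32), which encode membrane proteins needed for precursor fusion. At 14-dpf 19 fell and 1 rose, with a median of −1.69 beside 0.04. *Siglec15* (−2.84, SE 0.29), a surface lectin of osteoclasts, and *Oscar* (−2.79, SE 0.25), a co-stimulatory receptor for collagen, were lowest. The riser was *Car2* (0.83, SE 0.14), the carbonic anhydrase that also works in red blood cells. At 6-dpf 2 of the 20 rose, *Snx10* (0.49, SE 0.07) and *Ostm1* (0.42, SE 0.11), genes whose loss causes osteopetrosis.

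Of 28 genes of RANK signal transduction and osteoclast transcription, 4 passed the test at 6-dpf, 7 at 10-dpf and 4 at 14-dpf. At 6-dpf 4 rose, led by *Irf8* (0.67, SE 0.15), a repressor of osteoclast differentiation, and *Tnfaip3* (0.66, SE 0.11), an inhibitor of NF-κB. At 10-dpf 4 fell and 3 rose. *Prdm1* (−0.98, SE 0.20), which silences anti-osteoclastic genes, and *Jdp2* (−0.78, SE 0.17), an AP-1 family factor needed in osteoclasts, were lower, while the repressors *Irf8* (0.80, SE 0.16) and *Bcl6* (0.55, SE 0.12) were higher. At 14-dpf 4 fell and none rose, with *Jdp2* at −1.56 (SE 0.16) and *Prdm1* at −1.23 (SE 0.29). The medians of this list were 0.16, 0.03 and −0.06 at 6-, 10- and 14-dpf, near those of all genes tested.

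The ITAM pathway, the co-stimulatory signal that RANK needs in precursors, was represented by 14 genes. At 6-dpf 10 of the 14 rose, with a median of 0.50 beside 0.01 over all genes, among them the adaptors *Tyrobp* (0.63, SE 0.13) and *Blnk* (0.73, SE 0.20). Bulk callus does not tell which cells the reads of these genes came from. At 10-dpf 3 rose, led by *Pirb* (0.95, SE 0.12), an inhibitory receptor, and *Trem2* (0.73, SE 0.14), a receptor that signals through *Tyrobp*. At 14-dpf 2 rose, *Vav3* (0.57, SE 0.13) and *Fcer1g* (0.56, SE 0.13), and 1 fell, *Oscar*, which is also on the osteoclast list.

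Downstream of the CSF1 receptor, 6 of 18 genes rose at 6-dpf and none fell. The highest were *Bcl2a1b* (1.76, SE 0.32), a survival gene at 0.577 CPM in WT, and *Pik3cd* (0.52, SE 0.14), a catalytic subunit of PI3 kinase. At 10-dpf 4 rose, among them *Pik3cd* (0.59, SE 0.14). At 14-dpf 3 fell, including *Spi1* (−0.67, SE 0.13), the myeloid factor PU.1 that drives *Csf1r*, and the kinase *Akt1* (−0.61, SE 0.11), and *Pik3cg* rose (0.99, SE 0.20). Among 17 genes of other myeloid growth factors and their receptors, of which 15 were tested, 7 rose at 6-dpf, 3 at 10-dpf and 1 at 14-dpf, and none fell. They included the chemokine *Ccl2* (1.38, SE 0.22) and the receptor *Il10ra* (1.17, SE 0.09) at 6-dpf, *Ccr2* (0.97, SE 0.20) and *Il10ra* (0.89, SE 0.16) at 10-dpf, and *Cx3cr1* (0.91, SE 0.19) at 14-dpf.

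On the stromal side, 31 genes that act on RANKL and OPG production were tested. At 6-dpf 6 fell and 6 rose. *Pth1r* (−2.14, SE 0.24), the receptor of parathyroid hormone, and *Ptgs2* (−1.09, SE 0.20), the prostaglandin synthase COX-2, were lowest, and *Sost* (1.36, SE 0.25), the osteocyte Wnt inhibitor, and *Il6* (1.26, SE 0.21) were highest. At 10-dpf 6 fell and 3 rose, with the vitamin D receptor *Vdr* at −1.24 (SE 0.27), *Pth1r* at −1.11 (SE 0.16), *Il1b* at 1.13 (SE 0.14) and the prostaglandin receptor *Ptger4* at 0.79 (SE 0.11). At 14-dpf 9 fell and 1 rose. *Dkk1* (−2.17, SE 0.41), a Wnt inhibitor, and *Vdr* (−1.91, SE 0.22) were lowest and *Ptger4* (0.76, SE 0.18) was the riser.

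Other partners and sheddases of the members made a list of 10, of which 9 were tested. *Lgr4*, a second receptor of RANKL, fell at 6-dpf (−1.02, SE 0.17). *Mmp14*, a protease that cleaves membrane RANKL, fell at 10-dpf (−0.71, SE 0.14) and at 14-dpf (−1.24, SE 0.28). *Ptprz1*, a receptor of IL-34, fell at 10-dpf (−1.16, SE 0.22). At 14-dpf the proteoglycan *Sdc1*, which binds IL-34, fell (−1.17, SE 0.19) and *Vwf*, a binding partner of OPG, rose (1.11, SE 0.20). At 3-dpf none of the genes on the 7 lists passed edgeR's test. The counts of several lists depended on the fit. With library size alone at 6-dpf, a scaling that raised the median of all genes from 0.01 to 0.20, 17 of the 28 RANK signal genes rose. So did 7 of the 20 osteoclast genes, 11 of the 18 CSF1 receptor genes and 10 of the 31 stromal genes. Over all genes, 2780 rose and 814 fell with this scaling, against 1075 and 1137 of the 20260 tested with TMM. Without the sex term at 14-dpf, 9 RANK signal genes fell and 4 rose, and 2 ITAM genes fell and 7 rose. In the same fit 6 CSF1 receptor genes fell and 6 rose, and 11 stromal genes fell and 5 rose. There 1 myeloid factor gene fell and 6 rose. Over all 18410 genes tested without the sex term, 3382 fell and 3467 rose. Rises in the RANK signal and stromal lists and falls in the ITAM and myeloid factor lists were not more frequent than that. With DESeq2 at 10-dpf, 7 myeloid factor genes rose. All genes named from the lists at 14-dpf also passed without the sex term.

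**Figure D4:**
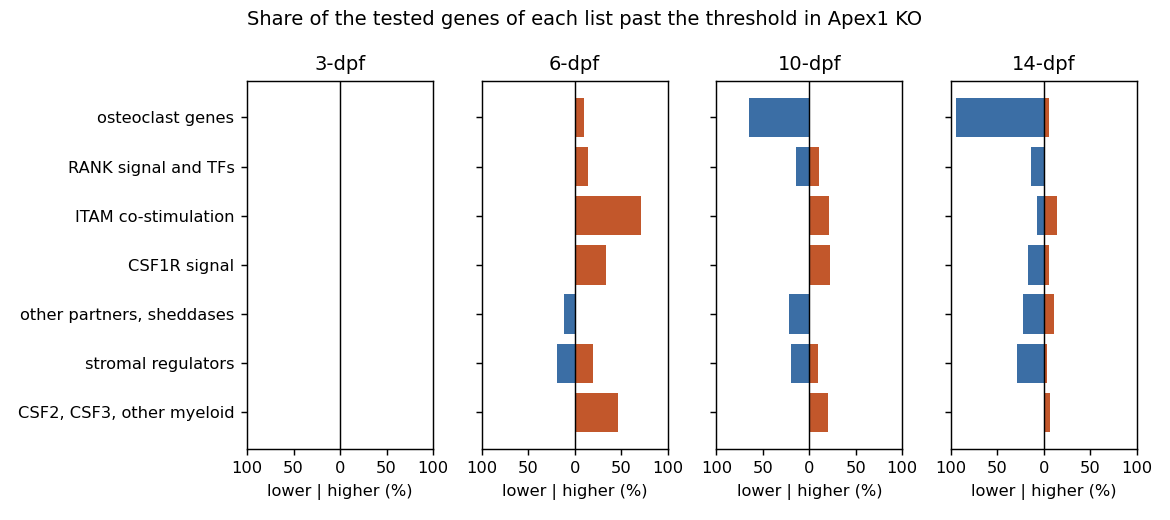
Percentage of the tested genes of each of the 7 lists that passed the test as lower (blue, left) or higher (orange, right) in Apex1 KO at each time. The longest bars are the ITAM list at 6-dpf, where 10 of 14 rose, and the osteoclast list at 10- and 14-dpf, where 13 and 19 of 20 fell.

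Markers of the cells that make or receive these signals also differed between genotypes. The 8 osteoclast markers all stand on the osteoclast list above, so their counts repeat part of that list. At 6-dpf 9 of 12 macrophage markers rose in Apex1 KO, with summed levels of 1610 to 2062 CPM in WT and 2742 to 3180 CPM in Apex1 KO. None of the 8 osteoclast markers passed at 6-dpf. At 10-dpf 5 of 8 osteoclast markers fell, with sums of 3555 to 8081 CPM in WT and 1357 to 2223 CPM in Apex1 KO, while 8 of 12 macrophage markers rose, from sums of 891 to 1730 CPM to sums of 1751 to 2290 CPM. Without the sex term 2 of the 12 macrophage markers rose at 10-dpf, and with DESeq2 10 did. At 14-dpf 8 of 8 osteoclast markers fell, with sums of 12690 to 14203 CPM in WT and 1855 to 3367 CPM in Apex1 KO, and 7 of 12 macrophage markers rose and 1 fell. No macrophage or osteoclast marker was at 0 counts in any library.

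Osteoblast markers fell in Apex1 KO at 6-dpf (8 of 10), 10-dpf (6 of 10) and 14-dpf (5 of 10), with sums of 45636 to 63407 CPM in WT and 19864 to 30399 CPM in Apex1 KO at 10-dpf. Hypertrophic chondrocyte markers fell in 6 of 7 genes at 6-dpf and 2 of 7 at 10-dpf. Skeletal muscle markers summed to 4023 to 5647 CPM in WT and 5705 to 14122 CPM in Apex1 KO at 3-dpf, without overlap, where edgeR called none of the 12 and DESeq2 called 6 as higher. Of the 12, 10 rose at 6-dpf, with sums of 3531 to 6637 CPM in WT and 8556 to 19832 CPM in Apex1 KO, and none passed at 10- or 14-dpf, where DESeq2 called 4 at 10-dpf and edgeR without the sex term 5 at 14-dpf. Of 9 T cell markers 4 rose at 6-dpf, 1 at 10-dpf and 1 at 14-dpf, or 9 at 14-dpf without the sex term. Their sums were 28.9 to 33.5 CPM in WT and 37.2 to 56.3 CPM in Apex1 KO at 10-dpf, without overlap, and at 14-dpf they were 34.1 to 39.7 CPM in WT and 72.4 to 98.3 CPM in Apex1 KO, without overlap. Of 6 markers of marrow stroma and adipocytes 3 rose at 6-dpf (none without the sex term), 4 rose and 1 fell at 10-dpf, and 1 fell at 14-dpf. Their sums at 14-dpf were 1719 to 2286 CPM in WT and 608 to 1598 CPM in Apex1 KO. The part of these cell types in the differences of the 6 members was not tested.

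**Figure D5:**
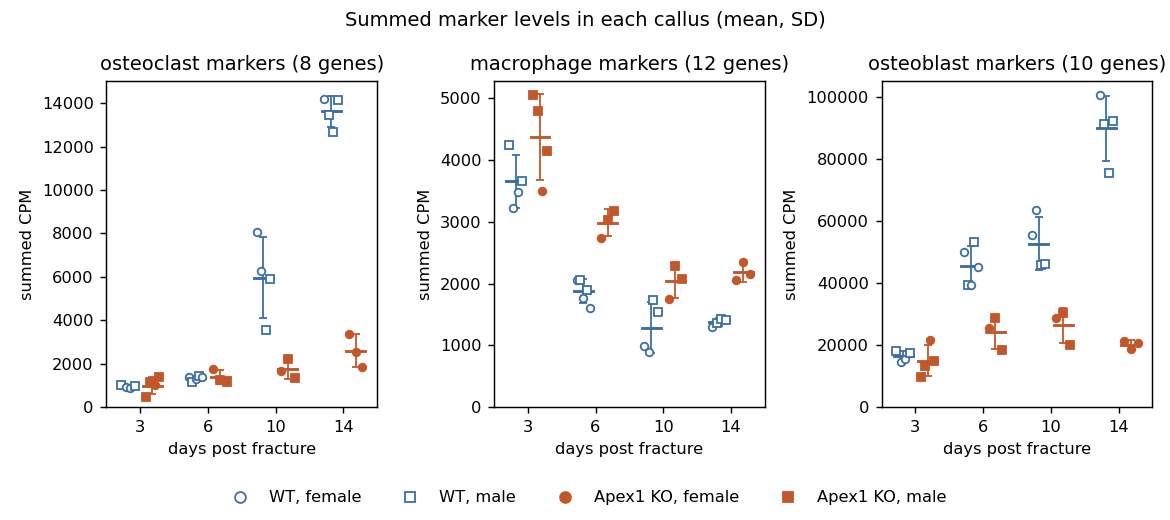
Summed CPM of 8 osteoclast, 12 macrophage and 10 osteoblast markers in each callus against days post fracture, symbols as in the plot of member levels, with mean and SD. Osteoclast sums rise to between 12690 and 14203 CPM in WT at 14-dpf and stay at or below 3367 CPM in Apex1 KO, while macrophage sums are higher in Apex1 KO from 6-dpf.

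Genes with the most similar course over the 8 groups were found from centred mean log2 CPM among 13795 protein-coding genes, as the smallest root mean square (RMS) distance. For *Tnfsf11*, whose own range was 1.99 on the log2 scale, they were *Grk3* (RMS 0.161), *Nlrp10* (0.174) and *Tgfbr1* (0.178). For *Tnfrsf11a* they were *Prdm1* (0.165), *St18* (0.171) and *Bdh2* (0.186), and for *Tnfrsf11b* they were *Gpx3* (0.258), *Lum* (0.283) and *Hapln3* (0.309). *Csf1* was closest to *Galnt6* (0.18), *Ppargc1b* (0.181) and *Frrs1* (0.185), and *Csf1r* to *Sema4d* (0.161), *Serpinb8* (0.163) and *Cyp2s1* (0.167). *Il34*, with a range of 0.66, was closest to *Idnk* (0.0701), *Zkscan14* (0.0739) and *Ccm2* (0.0767). The groups share libraries across all genes, so the distances are a description.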

How the data were processed

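Total RNA of ground callus from 30 mice was made into stranded libraries after ribosomal RNA removal. The authors deposited raw counts per Ensembl gene, without normalization. The submitters' processing notes name bcl2fastq 2.20, STAR 2.7.0d, featureCounts, DESeq2 1.32.0 and the mouse build mm39. Total counts were 18334389 to 43111491 per library. Samples were grouped by genotype and time from the labels. Positions and exon lengths are from GENCODE M39 (GRCm39), which held 54749 of the 55416 gene IDs.

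Counts were tested with edgeR 4.0.16 in R 4.3.3 (robust quasi-likelihood fit, TMM, filterByExpr, Benjamini-Hochberg adjustment over all genes, threshold 0.05). Genotype and sex were the terms at each time, and 3- and 6-dpf or 10- and 14-dpf shared a model for changes over time. CPM used TMM over all 30 libraries. Replicates are separate mice. Alternatives were DESeq2 1.42.0, other scalings and filters, no sex term, the replicate number as a block, 1 model over 30 libraries, and each mouse left out. The labels do not say that mice were paired. At 3-dpf, the deviations of mice with the same replicate number had r = 0.50, 0.13, 0.20 and 0.17. Mice with unlike numbers had r from −0.33 to 0.33, so whether the number marks pairs is not settled. The block at 3-dpf called 1 gene and no member.

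The members, the 7 gene lists and the marker lists were chosen with earlier results of these data known. From each list and time, up to 2 genes with the highest and 2 with the lowest log2 difference among those past the threshold are named, and for each member the 3 protein-coding genes of at least 1 CPM with the most similar course. A single gene among those that the rule names is left out and not reported here. *Nfatc1*, *Oscar* and *Gab2* stand on 2 of the gene lists each, and all osteoclast markers are also on the osteoclast list. The scripts were tested on simulated data.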

Additional observations from a re-analysis of the deposited data

Results flagged for a closer look

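Single mice stood apart from their group, by the ratio of the gap to the range, in 5 of the 35 groups of levels and ratios examined, where chance marks about 1 in 20 such groups. *Tnfrsf11b* was at 6.59 CPM in WT replicate 1 and at 7.12 CPM in Apex1 KO replicate 4 at 3-dpf, each the highest of 4 mice that otherwise lay close together. It was at 32.4 CPM in WT replicate 3 at 10-dpf. *Il34* was at 6.23 CPM in WT replicate 2 at 6-dpf. The ratio of *Tnfsf11* to *Tnfrsf11b* was 1.26 in WT replicate 4 at 14-dpf, below the other WT mice.

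The genotype difference itself changed between times, by edgeR's test of the interaction, for *Csf1r* from 3- to 6-dpf (0.78). From 6- to 10-dpf it changed for *Tnfrsf11a* (−1.66), *Csf1* (−1.54), *Tnfsf11* (−1.35) and *Csf1r* (−1.20). From 6- to 14-dpf it changed for *Tnfrsf11a* (−2.01), *Csf1* (−1.23) and *Csf1r* (−1.77). The comparisons of 6- with 10- and 14-dpf were added after the data were seen.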

How the results depend on the processing

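No member difference that passed in edgeR with TMM and sex in the model changed direction under the other settings, while some that did not pass there did. Among the latter, *Tnfsf11* and *Tnfrsf11b* at 14-dpf passed in some settings and had the other sign in others. Of 606 log2 differences of members under other settings with all mice, 574 kept their side of the threshold, 21 gained a call and 11 lost one, and of 942 with 1 mouse left out these were 892, 12 and 38. The cause of the changes below was not tested. Genes called at 3-dpf were 0, with 1216 at an unadjusted p under 0.05, and 85 with DESeq2, 4 with no filter, 1 with the replicate block and 38 with all 30 libraries in 1 model. At 6-dpf 2212 became 3594 with library size alone and 677 with the replicate block, and 3 members became 1 with the block or all 30 libraries. At 10-dpf 1221 became 2187 with DESeq2 (members 2 to 4) and 750 without sex. At 14-dpf 2289 became 6849 without sex, 6188 with all 30 libraries and 7340 with DESeq2 without sex.

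For changed differences, 267 genes from 3- to 6-dpf became 718 (DESeq2), 433 (library size, 2 members), 90 (block, 0 members) and 410 (all 30 libraries). From 6- to 10-dpf 545 became 1047 (DESeq2), 826 (library size) and 141 (block), where *Tnfrsf11a* had an adjusted p of 0.0521. From 6- to 14-dpf 1522 became 2589 without sex. From 10- to 14-dpf 86 became 465 (DESeq2, 1 member), 8 (library size), 55 (20 most abundant genes left out) and 207 (no filter, 1 member). In Apex1 KO, 2867 genes from 3- to 6-dpf became 1621 with the block (2 members), and 51 from 10- to 14-dpf became 550 (DESeq2, 1 member), 672 (no sex, 1), 217 (no filter), 656 (block, 1) and 507 (all 30 libraries, 1). The block changed the calls of *Tnfrsf11a* (adjusted p = 0.0761) and *Csf1* (0.236) at 6-dpf, of *Csf1r* from 3- to 6-dpf (0.0513), and in Apex1 KO of *Csf1* (0.0571) and *Csf1r* (0.0508) from 3- to 6-dpf and of *Csf1* (0.0436) from 10- to 14-dpf. At 6-, 10- and 14-dpf the deviations of mice with the same number had r from −0.37 to 0.28.

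With 1 mouse left out, genes called ranged over 0 to 10 at 3-dpf (members 0 to 0), 890 to 2359 at 6-dpf (0 to 3, 0 without Apex1 KO replicate 1), 42 to 1827 at 10-dpf (1 to 4, 42 without Apex1 KO replicate 1) and 1206 (without WT replicate 2) to 3773 (without Apex1 KO replicate 2) at 14-dpf with sex in the model (2 to 4). Leaving out WT replicate 1 at 14-dpf also removes the sex term and gave 6181 (4 members). Without sex they ranged over 4768 to 6557 (3 to 4), with 6536 and 5956 without Apex1 KO replicates 1 and 3, and 5251 and 4942 without WT replicates 3 and 4. Changed differences ranged over 104 to 450 from 3- to 6-dpf (0 to 1), 247 to 996 from 6- to 10-dpf (4 to 5), 816 to 1993 from 6- to 14-dpf (3 to 4) and 2 to 206 from 10- to 14-dpf (0 to 0). Changes in time ranged over 4735 to 6819 (4 to 5) and 1162 to 2760 (2 to 3) in WT, and 1223 to 3258 (2 to 4) and 0 to 252 (0 to 0) in Apex1 KO. Library size alone moved the median of all genes from 0.01 to 0.20 at 6-dpf and from 0.04 to 0.31 at 14-dpf, and the split of lower and higher calls from 1137 and 1075 to 814 and 2780 at 6-dpf, from 651 and 570 to 464 and 849 at 10-dpf, and from 1424 and 865 to 766 and 1878 at 14-dpf.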

Other observations

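Other cell types of the callus also differed between genotypes. At 6-dpf 12 of 12 cartilage markers fell in Apex1 KO, with sums of 34612 to 60269 CPM in WT and 3059 to 5684 CPM in Apex1 KO, and none passed at 10-dpf. At 14-dpf 11 of the 12 rose and 1 fell with sex in the model, and 2 rose and 1 fell without it. The cartilage sums at 14-dpf overlapped, at 3090 to 8263 CPM in WT and 5519 to 6734 CPM in Apex1 KO. The lowest WT sum was that of the 1 WT female, the reference of the fit with sex. Of 6 osteocyte markers 2 fell and 3 rose at 6-dpf. At 10-dpf 2 of the 5 tested fell, with sums of 450 to 1039 CPM in WT and 269 to 375 CPM in Apex1 KO, and at 14-dpf 4 of 5 fell, with sums of 981 to 1305 CPM in WT and 306 to 457 CPM in Apex1 KO. Of 8 neutrophil markers 7 rose at 14-dpf, from sums of 967 to 1559 CPM to sums of 2051 to 2628 CPM, and 4 of 7 erythroid markers rose. At 10-dpf the neutrophil sums were 987 to 2201 CPM in WT and 2195 to 4098 CPM in Apex1 KO, which overlapped. Sums of 7 B cell markers overlapped between genotypes at 3-, 6- and 10-dpf. At 14-dpf the B cell sums were 102 to 151 CPM in WT and 211 to 673 CPM in Apex1 KO, without overlap.

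*Il34* at 10-dpf separated by sex and not by genotype. The 3 females were at 2.17 and 1.97 CPM (WT) and 2.81 CPM (Apex1 KO), and the 4 males at 7.21 and 5.32 CPM (WT) and 5.25 and 6.07 CPM (Apex1 KO). At 3-, 6- and 14-dpf females and males overlapped. This pattern was noticed in the data and was not tested.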
